A study of Mus musculus with 12 samples.

Results

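The 35 genes described here make up the NF-κB pathway as chosen by a list of symbols. They are its DNA-binding subunits, the IκB family, the kinases, adaptors and receptors upstream, genes that brake the pathway, and a few genes it induces. All 35 were found among the 54232 gene identifiers of the count table, by matching the identifiers to GENCODE M21 symbols. They were measured by mRNA sequencing of cortex from C57BL/6J mice aged 12 weeks. The mutants were 3 females and 3 males homozygous for Tbl1xr1 Y446C (Tbl1xr1 Y446C/Y446C), an amino acid change that in people causes Pierpont syndrome, and the wild types were 3 females and 3 males. The labels name no treatment and no tissue-specific driver of the allele, and each library came from 1 animal. Of the 35 genes, 10 were classed as induced targets (Nfkbia, Nfkbie, Nfkbiz, Bcl3, Tnfaip3, Birc3, Icam1, Vcam1, Ccl2 and Cxcl1) and 25 as pathway components.

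NF-κB dimers wait in the cytoplasm bound to IκB proteins. Signals from TNF, interleukin-1 and Toll-like receptors run through TRAF and RIP adaptors to the IκB kinase complex, which marks IκB for destruction and lets the dimers enter the nucleus. There they induce inflammatory genes together with their own inhibitors, so that levels of Nfkbia and Tnfaip3 mRNA are commonly read as a trace of pathway activity. Tbl1xr1 encodes a subunit of the NCoR and SMRT corepressor complexes, and in cultured cells it has been described as exchanging corepressors for coactivators at NF-κB-regulated genes. In brain the pathway is best known from microglia, astrocytes and endothelium.

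One feature of these genes that does not depend on expression is the κB element in some of their promoters. RefSeq windows on GRCm38.p6, reaching from 250 bases before to 50 bases after a start site, were matched by symbol for 28 of the 35 genes. The κB consensus, the loosely defined sequence bound by NF-κB dimers, was searched on both strands and found in 13 of the 28 genes, against 9.55% of all 27025 genes with a window. It was in 5 of 7 induced targets (Nfkbia, Nfkbie, Bcl3, Tnfaip3 and Cxcl1) and in 8 of 21 components (Nfkb2, Rel, Map3k7, Traf3, Irak1, Il1r1, Tnip1 and Cyld). The 160 bases before the start site are shown for 2 targets and 2 components, since these carry the same element in both classes that are compared below. Capitals mark the match, which in Cxcl1 is a pair of overlapping matches, 1 on each strand.
Nfkbia: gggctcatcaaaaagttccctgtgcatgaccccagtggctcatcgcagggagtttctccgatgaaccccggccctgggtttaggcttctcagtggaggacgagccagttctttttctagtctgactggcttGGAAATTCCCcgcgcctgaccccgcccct
Cxcl1: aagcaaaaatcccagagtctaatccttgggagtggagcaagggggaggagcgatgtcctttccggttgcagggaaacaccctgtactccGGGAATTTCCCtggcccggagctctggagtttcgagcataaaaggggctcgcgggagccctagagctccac
Cyld: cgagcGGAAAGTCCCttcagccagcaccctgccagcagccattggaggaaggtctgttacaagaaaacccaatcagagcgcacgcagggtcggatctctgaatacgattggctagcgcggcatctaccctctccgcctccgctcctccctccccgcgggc
Map3k7: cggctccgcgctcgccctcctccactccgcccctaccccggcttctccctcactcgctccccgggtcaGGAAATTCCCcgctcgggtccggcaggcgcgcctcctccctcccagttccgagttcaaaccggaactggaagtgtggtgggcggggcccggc
They lie at chr12:55492648-55492807 (minus strand), chr5:90891085-90891244 (plus strand), chr8:88696868-88697027 (plus strand) and chr4:31963947-31964106 (plus strand). The first capital stands 29 bases before the start site in Nfkbia, 71 in Cxcl1, 155 in Cyld and 92 in Map3k7. A match is a description of letters and neither a site of binding nor a cause.

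Of the 12 libraries, 1 stood apart before any comparison. Female mutant 3 held 3748515 counts, against 21238427 to 32669138 in the other 11. Mitochondrial genes took 31.6% of its counts, against 5.23% to 10.4%, and its Spearman correlation with the others over genes was 0.911 to 0.937, against 0.985 to 0.994 among the others. Its summed level of 8 neuronal marker genes was 15984 CPM (counts scaled to a common library total), against 7005 to 9567 CPM in the others. Snap25 alone made up 10049 CPM of that sum, and the markers did not move together. Syt1 and Gad2 were the highest of any mutant there, at 2737 and 623 CPM. Slc17a7, Nrgn and Gad1 were the lowest of any mutant there, at 193, 215 and 242 CPM. Members' fold changes over both sexes are therefore given with female mutant 3 and without it. The mitochondrial share also differed by genotype among the other females. It was 9.96% and 8.97% in female mutants 1 and 6, against 6.25%, 5.23% and 7.89% in wild-type females. Mutant males had 6.51%, 5.58% and 5.57%, against 10.4%, 5.79% and 5.93% in wild-type males. Leaving out female mutant 3 does not remove this difference in females, and its part in the values below was not tested. Tbl1xr1 mRNA averaged 93.5 ± 2.69 CPM in mutants and 105 ± 7.05 CPM in wild types (SD, n = 6 each), a log2 fold change of -0.17 (SE 0.07) with an adjusted p of 0.950 by edgeR's quasi-likelihood test. The counts carry no sequence, so they do not check the Y446C allele. Nothing beyond separate animals is stated of the replicates, and the defining markers of neurons, astrocytes, oligodendrocytes, microglia and endothelium were all detected. In some cell type marker lists most genes differed in the same direction between the genotypes, though the summed levels overlapped. All 12 striatal neuron markers were lower in mutants, with sums of 334 to 1470 CPM in mutants and 647 to 2316 CPM in wild types. Their median log2 fold change was -0.79, and -0.88 without female mutant 3. Of 8 choroid plexus markers 7 were lower, with a median of -0.13 (-0.11 without it). Of 10 astrocyte markers 5 were higher and 5 lower, with a median of 0.06 (0.07 without it). Gfap, among those higher, had a log2 fold change of 0.49 (0.56 without it). None of these genes passed the test, and their part in the values below was not tested.

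Most of the pathway was expressed in cortex, at levels spread over 3 orders of magnitude per unit of length. In wild types, in CPM per kb of exon, the deubiquitinase Cyld was highest at 19.1, followed by the TAK1-binding protein Tab2 at 15.1, TAK1 itself (Map3k7) at 11.7. The IκB kinase subunit Chuk came next at 9.996. Rela, the main transactivating subunit, stood at 4.48 and Nfkbia, the principal cytoplasmic inhibitor, at 5.46. The other subunits were lower on the same per-length scale, with 1.56 for Nfkb1, 1.17 for Rel, 0.813 for Relb and 0.498 for Nfkb2. Among receptors, Tnfrsf1a (TNF receptor 1) reached 3.02, Il1r1 1.11, Tnfrsf1b (TNF receptor 2) 0.919 and Cd40 0.120. The nuclear IκB protein gene Bcl3, at 0.127, and Cd40 lay at the 3.08th and 2.78th percentile of all tested genes. Neighbours in this order, such as Nfkbia and Ikbkg or Tnfaip3 and Tnfrsf1b, overlapped in their libraries.

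**Figure D1:**
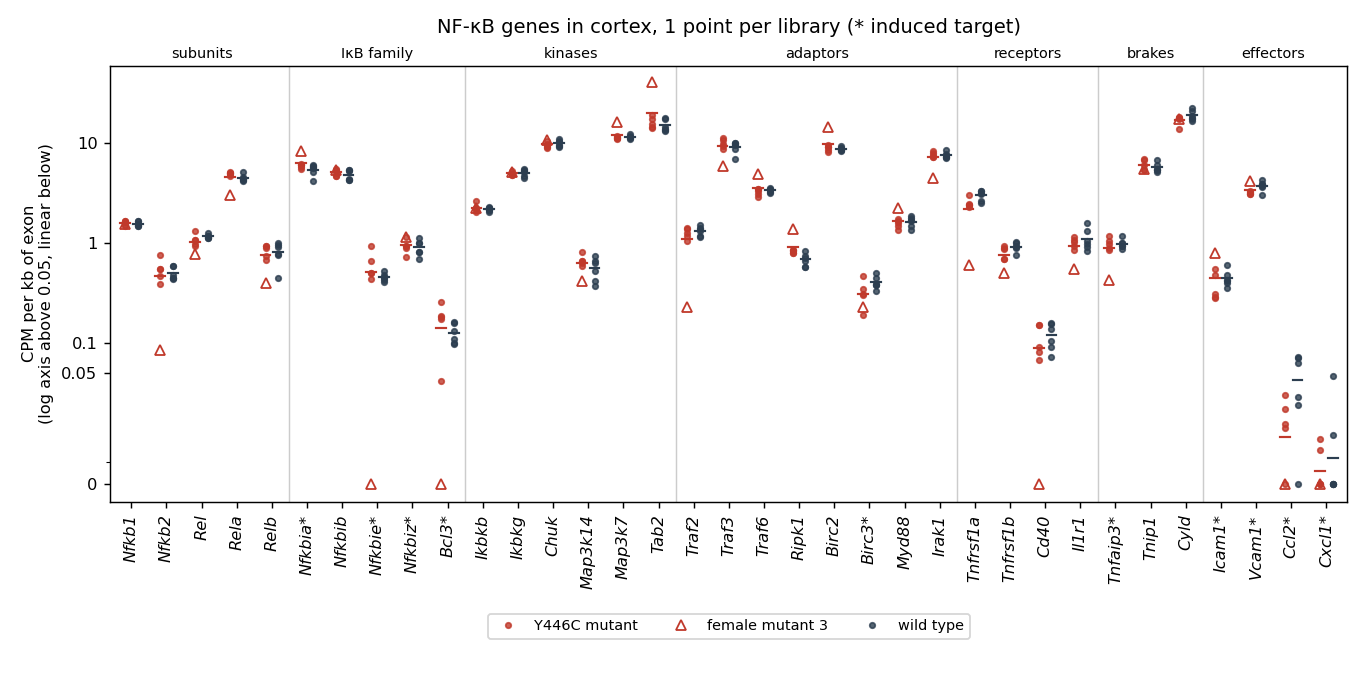
Level of the 35 NF-κB genes in each library, in CPM per kb of exon (logarithmic above 0.05, linear below), with mutants (red) left of wild types (dark blue), a bar at each genotype's mean, and female mutant 3 as an open triangle; asterisks mark induced targets, and brakes are Tnfaip3, Tnip1 and Cyld. Cyld, Tab2, Map3k7 and Chuk sit at the top, the chemokines Ccl2 and Cxcl1 near 0, and the open triangle is often far from the other mutants.

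The inflammatory chemokines were at the limit of detection. Ccl2, a monocyte attractant, had 4 counts summed over the 6 mutants and 8 over the 6 wild types, with 0 to 2 counts in any library. Cxcl1, a neutrophil attractant, had 5 counts in all and 0 in 8 of 12 libraries. In 11 libraries a count of 0 still allows a level of 0.0861 to 0.137 CPM, and in female mutant 3 one of 1.16 CPM (3 counts, counting error only). Neither gene could be tested, and no difference between genotypes was detectable at this depth. The other 33 members were kept by the filter on low counts.

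The comparison of mutants with wild types asks whether the Y446C allele of this corepressor subunit shifts pathway components or their induced targets. Over both sexes, 0 of the 33 tested members passed an adjusted p of 0.05 in edgeR's quasi-likelihood test with sex as a covariate, where 0.00555% of the 18016 tested genes did (1 gene, Mpeg1, a macrophage pore-forming protein, with a log2 fold change of -1.05). At an unadjusted p under 0.05 there was 1 member, the adaptor kinase gene Ripk1, against 3.96% of all genes. Log2 fold changes ran from -0.38 for Birc3 to 0.39 for Bcl3, with 16 members higher and 17 lower in mutants and adjusted p-values of 0.950 to 0.999. For 32 of 33 members the 95% interval of the difference stayed within 2-fold in either direction, Bcl3 being the exception. For 23 it stayed within 1.5-fold. Among all 18016 tested genes the interval stayed within 2-fold for 15750 and within 1.5-fold for 10818. Without female mutant 3, 0 members passed (0.0108% of 18461 genes did) and 3 had an unadjusted p under 0.05, Vcam1, Ripk1 and Tnfrsf1a, against 7.46% of all genes. DESeq2 and limma-voom with library weights called no member either, whereas their counts over all genes were 25 and 22.

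**Figure D2:**
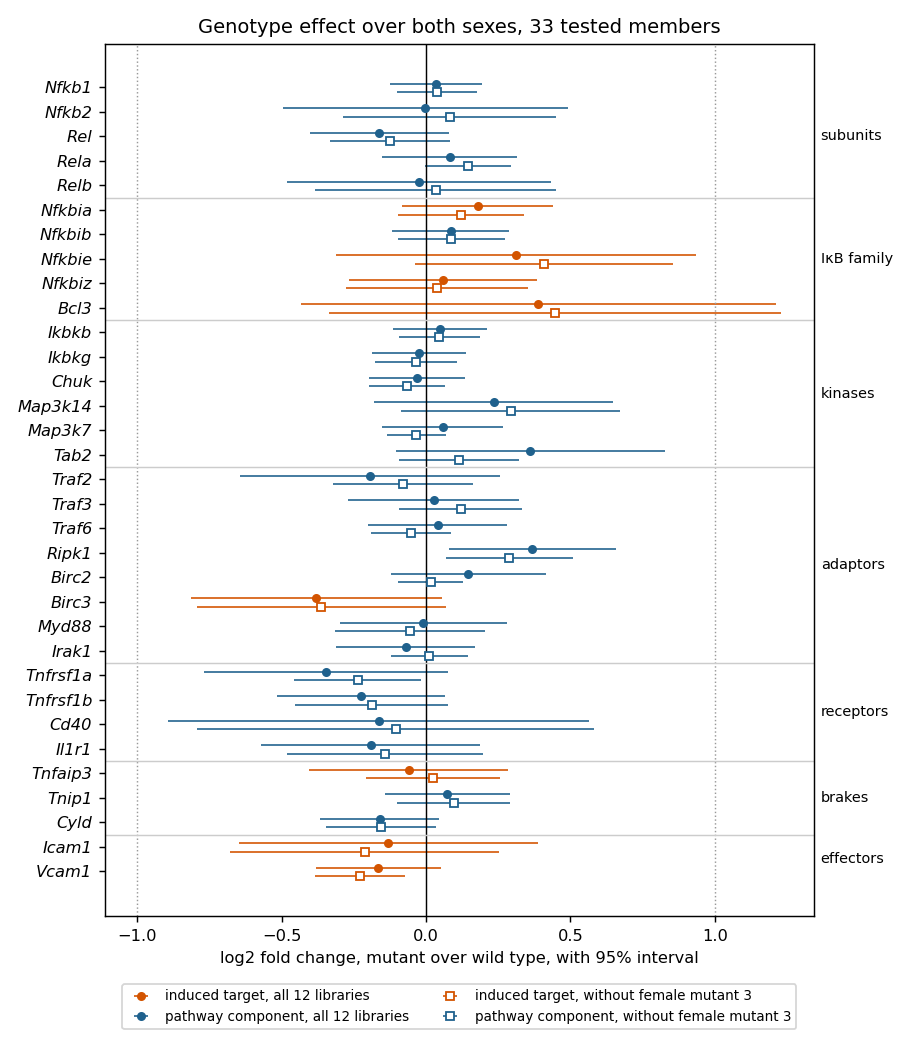
Log2 fold change of each tested member, mutant over wild type, over both sexes, with its 95% interval, for all 12 libraries (filled) and without female mutant 3 (open); induced targets are orange, components blue, and dotted lines mark 2-fold. Values run from -0.38 (Birc3) to 0.39 (Bcl3) with all 12 libraries, and those of Tab2, Traf2, Traf6 and Birc2 move toward or across 0 without female mutant 3.

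Induced targets and pathway components had near-equal medians. The 8 tested targets had a median log2 fold change of -0.001, with 4 higher and 4 lower in mutants. The 25 components had a median of -0.002, with 12 higher and 13 lower, and the median of all tested genes was -0.01. Targets minus components came to 0.001, and to 0.02 without female mutant 3, where the medians were 0.03 for targets, 0.01 for components and 0.002 for all genes. A broader target class of 16 genes, which adds members that are both components and inducible, gave a difference of -0.04, and of 0.07 without that library. Of the 1528 tested genes with the κB consensus in a promoter window, 0 were called, the median was -0.02, and 3.86% had an unadjusted p under 0.05, against 3.96% of all tested genes. Leaving out female mutant 3, the median of these genes was 0.01 and the shares were 7.25% and 7.46%.

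Among the DNA-binding subunits, Rela was the most abundant per length and Rel had the smallest p. Rela had a lowest, median and highest level of 9.29, 15.3 and 15.8 CPM in mutants, against 12.9, 13.4 and 15.7 CPM in wild types. The 9.29 CPM belonged to female mutant 3, and the other 5 mutants, at 14.3 to 15.8 CPM, lay in the upper part of the wild-type range or above it. The log2 fold change was 0.08 (SE 0.11), and 0.14 without that library. Rel, which encodes c-Rel, had 5.81, 7.70 and 9.88 CPM in mutants, against 8.33, 8.76 and 9.41 CPM in wild types. Mutants were spread more widely than wild types on both sides, and the log2 fold change was -0.16 (SE 0.11), and -0.12 without female mutant 3. Nfkb1, the precursor of the p50 subunit, was among the steadiest members, with 19.2 ± 0.877 CPM in mutants and 18.8 ± 0.999 CPM in wild types (SD, n = 6 each), and log2 fold changes of 0.03 with and 0.04 without that library. Nfkb2, the precursor used by the non-canonical branch, had a log2 fold change of -0.002 (SE 0.23) and its partner Relb one of -0.03 (SE 0.21), and both had under 5 counts in female mutant 3. Without it the signs turned, to 0.08 for Nfkb2 and 0.03 for Relb. Counts are uncertain where exons overlap a gene on the other strand, since the strand setting of the counting was not given in the sources used here. Such overlaps cover 14.5% of exon bases in Nfkbib (with Ccer2), 11.7% in Icam1 (Gm47079) and 11.3% in Myd88 (Acaa1a). They cover 6.51% in Bcl3 (Gm16175) and 5.15% in Ikbkg (G6pdx). Nfkb2 shares 11.6% with a non-coding gene and 6.52% with the protein-coding gene Psd.

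All 5 listed members of the IκB family had positive log2 fold changes over both sexes, with a median of 0.18, and none passed the test. In males 4 were higher and 1 lower. Of the further pathway genes described below, the IκB family gene Nfkbid and the IκB-like Nfkbil1 went the other way. They were at -0.35 and -0.10, and at -0.26 and -0.08 without female mutant 3. Nfkbia had 8.99, 9.70 and 13.6 CPM as lowest, median and highest in mutants, against 6.68, 9.30 and 9.72 CPM in wild types. The highest value was that of female mutant 3, the other mutants lay at 8.99 to 10.03 CPM, and the groups overlapped. Its log2 fold change was 0.18 (SE 0.12), and 0.12 without that library. Nfkbie, for IκBε, had 0, 1.54 and 2.87 CPM in mutants, against 1.25, 1.38 and 1.60 CPM in wild types, with the 0 in female mutant 3 and the highest value in male mutant 10. The log2 fold change of Nfkbie was 0.31 (SE 0.29), and 0.41 without female mutant 3. Those of Nfkbib, Nfkbiz and Bcl3, which encode IκBβ and the nuclear proteins IκBζ and Bcl-3, were 0.08, 0.06 and 0.39, with a wide interval of -0.43 to 1.21 for Bcl3, which had 3 to 22 counts in the mutants other than female mutant 3. Without that library they were 0.09, 0.04 and 0.45, and the median of the 5 listed members was 0.12. Those of the 5 that were tested all stayed positive in 18 of 21 alternative settings, with Bcl3 tested in 20 of the 21. Nfkbiz was the one that turned in the other settings, at -0.02 to -0.007.

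Among the kinases, the largest fold change rested on 1 library. Tab2, whose product couples ubiquitin chains to TAK1, had 86.5, 102 and 250 CPM in mutants, against 81.6, 87.7 and 109 CPM in wild types. The 250 CPM was female mutant 3, and the other 5 mutants, at 86.5 to 119 CPM, overlapped the wild types. The log2 fold change of 0.36 (SE 0.22) became 0.11 (SE 0.10) without it. Map3k7 followed the same library, with 106 CPM there and 71.2 to 75.2 CPM in the other mutants, against 71.0 to 80.4 CPM in wild types. Its log2 fold change was 0.06 with female mutant 3 and -0.03 without it. The 3 subunits of the IκB kinase complex had log2 fold changes of 0.05 for the catalytic Ikbkb, -0.02 for the scaffold Ikbkg and -0.03 for the catalytic Chuk, each with an SE of 0.07 or 0.08, and without that library 0.05, -0.03 and -0.06. Map3k14, for the NF-κB-inducing kinase of the non-canonical branch, had a log2 fold change of 0.24 (SE 0.19), and 0.29 without female mutant 3.

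Among the adaptors, Ripk1 came closest to the threshold. Ripk1, a kinase that joins TNF receptor 1 to NF-κB and to cell death, had 6.65, 7.10 and 11.6 CPM in mutants, against 4.84, 5.79 and 6.94 CPM in wild types. Female mutant 3 held the 11.6 CPM, from 30 counts, and 1 wild-type female at 6.94 CPM lay above the lowest mutants. The log2 fold change was 0.37 (SE 0.13, unadjusted p = 0.0166), with an adjusted p of 0.950 by edgeR's quasi-likelihood test. Without female mutant 3 it was 0.29 (SE 0.10, unadjusted p = 0.014) with an adjusted p of 0.536, and the other 5 mutants lay at 6.65 to 7.19 CPM. Exons of Ripk1 share 6.12% of their bases with a processed pseudogene on the same strand and 2.89% with Serpinb6a on the other, so part of its counts is uncertain.

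The TRAF and IAP adaptors gave no common direction, with 4 of the 8 adaptors higher and 4 lower. Traf3, which restrains the non-canonical branch and was the most abundant adaptor per length, had 43.8, 70.9 and 83.7 CPM in mutants, against 51.3, 71.5 and 74.0 CPM in wild types. Both ranges were wide and overlapped, and the log2 fold change was 0.03 (SE 0.14), and 0.12 without female mutant 3. Traf2 and Traf6, which carry TNF and interleukin-1 signals, had values of -0.19 and 0.04 that moved to -0.08 and -0.05 without female mutant 3. The ubiquitin ligase genes Birc2 and Birc3, neighbours on chromosome 9, had log2 fold changes of 0.15 and -0.38. Birc2 stood at 67.4 CPM in female mutant 3 and at 37.7 to 44.2 CPM in the other mutants, against 38.6 to 42.7 CPM in wild types, and its log2 fold change without that library was 0.02. Birc3, the inducible one of the pair, had 0.962, 1.52 and 2.35 CPM in mutants, against 1.68, 1.93 and 2.55 CPM in wild types, with an SE of 0.20, and its log2 fold change without female mutant 3 was -0.36. Myd88 and Irak1, which act below Toll-like and interleukin-1 receptors, had log2 fold changes of -0.01 and -0.07. Irak1 was at 21.3 CPM in female mutant 3 and at 34.3 to 39.7 CPM in the other mutants, against 33.4 to 40.7 CPM in wild types. Without that library Myd88 was at -0.06, and Irak1 turned to 0.01.

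All 4 listed receptors had negative log2 fold changes over both sexes, with a median of -0.21, and none passed the test. In males all 4 were lower. In females 3 were lower and 1 was higher, at 0.06, and at 0.19 without female mutant 3. Of the further pathway genes described below, the receptor genes Ltbr and Il1rap went the other way over both sexes, at 0.07 and 0.11. Tnfrsf11a went the same way, at -0.26. Without female mutant 3 Ltbr, Il1rap and Tnfrsf11a were at 0.18, 0.03 and -0.34. Tnfrsf1a had 1.55, 6.24 and 7.86 CPM as lowest, median and highest in mutants, against 6.53, 8.09 and 8.73 CPM in wild types. Female mutant 3 was the lowest, from 4 counts, and 4 of the other 5 mutants lay below all wild types. The log2 fold change was -0.35 (SE 0.20), and without that library -0.24 (SE 0.10, unadjusted p = 0.0374, adjusted p = 0.630 by edgeR's quasi-likelihood test). Tnfrsf1b, Il1r1 and the co-stimulatory receptor Cd40 had log2 fold changes of -0.22, -0.19 and -0.16, and without that library of -0.19, -0.14 and -0.11. The median of the 4 without it was -0.17. Those of the 4 listed receptors that were tested were all negative in 21 of 21 alternative settings, with Cd40 tested in 20 of them. Microglial markers leaned the same way, with 10 of 12 lower in mutants, a median log2 fold change of -0.14 and a summed level of 287 to 365 CPM in mutants, against 337 to 381 CPM in wild types. The lowest sum was that of female mutant 3, and the other mutants had 332 to 365 CPM. Without it 9 of 12 were lower and the median was -0.08. Within females 11 of 12 microglial markers were lower, with a median of -0.26, and 9 of 12 with a median of -0.16 without female mutant 3. Within males 6 were higher and 6 lower, with a median of -7.4e-06, whereas all 4 receptors were lower. Endothelial markers summed to 230 to 277 CPM in mutants and 244 to 281 CPM in wild types, with 8 of 10 markers lower, and 5 of 10 without female mutant 3. In whole cortex, fewer cells of a type and less RNA per cell cannot be told apart, and the part of these markers in the receptor values was not tested.

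None of the genes that brake the pathway and neither of the tested adhesion molecules passed the test. Cyld, which removes ubiquitin chains from upstream adaptors, had 175, 221 and 232 CPM in mutants, against 210, 231 and 285 CPM in wild types. Male mutant 10 held the lowest value, the groups overlapped, and the log2 fold change was -0.16 (SE 0.09), the same without female mutant 3. Tnfaip3, the inducible ubiquitin-editing enzyme A20, had a log2 fold change of -0.06 (SE 0.16), and its binding partner Tnip1 one of 0.07 (SE 0.10). Without female mutant 3, where Tnfaip3 had 8 counts, Tnfaip3 turned to 0.02 and Tnip1 was at 0.10. Vcam1, a leukocyte adhesion molecule of vessels, had 27.8, 28.8 and 37.6 CPM in mutants, against 27.2, 33.8 and 37.8 CPM in wild types. Here female mutant 3 was the highest mutant, and the other 5 lay at 27.8 to 29.8 CPM, with 1 wild-type female below them and 5 wild types above. The log2 fold change was -0.17 (SE 0.10), and without that library -0.23 (SE 0.07, unadjusted p = 0.0077, adjusted p = 0.488 by edgeR's quasi-likelihood test). Icam1, its counterpart on endothelium and microglia, had a log2 fold change of -0.13 (SE 0.24), and -0.21 (SE 0.22) without that library.

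Female mutant 3 set many of the extremes. It was the highest of all 12 libraries in 8 and the lowest in 14 of the 33 tested members, whereas each other library was highest in 0 to 4 and lowest in 0 to 3. Nfkbie, Bcl3 and Cd40 had 0 counts there, which allows up to 1.16 CPM. No member separated all 6 mutants from all 6 wild types, where 0.438% of all tested genes did, and none did without that library, where 1.08% of genes did.

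**Figure D3:**
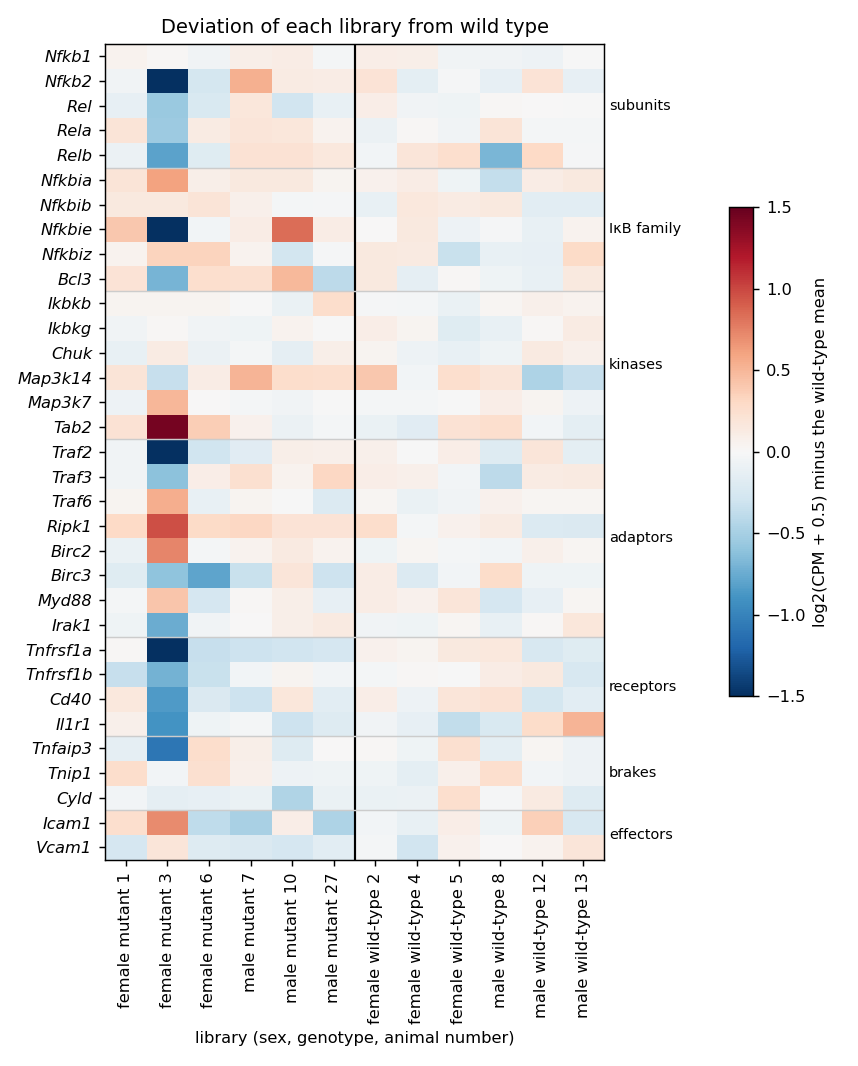
Each tested member in each library as log2(CPM + 0.5) minus the wild-type mean, with the 6 mutants left of the line and the 6 wild types right of it (red higher, blue lower, the colour scale ends at 1.5 in either direction). The column of female mutant 3 holds most of the deep colours, and Ripk1 is red in all 6 mutants.

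Within each sex the comparison has 3 mutants and 3 wild types. In females 0 of 33 members passed in edgeR's quasi-likelihood test, as did 0% of all genes, and 2 members had an unadjusted p under 0.05, against 11.8% of genes. Tab2 had 107, 250 and 119 CPM in mutant females, against 85.9, 81.6 and 107 CPM in wild-type females, which left the groups apart by a narrow gap. Tnfrsf1b had 2.63, 1.94 and 2.67 CPM in mutant females, against 3.40, 3.55 and 3.48 CPM in wild-type females, with all mutants lower. Their log2 fold changes were 0.77 and -0.44, and 0.31 and -0.39 without female mutant 3. In males 0 members passed, again with 0% of all genes, and 2 had an unadjusted p under 0.05, against 2.78%. Without female mutant 3, which alters the shared estimate of the spread, 0 members passed in males (0.00542% of genes did) and 4 had an unadjusted p under 0.05, against 8.43%. In females 0 passed without it, with 0% of genes, and 3 had an unadjusted p under 0.05, against 9.41%. Map3k14 had 5.33, 4.39 and 4.34 CPM in mutant males, against 4.14, 2.45 and 2.71 CPM in wild-type males, with no overlap and a log2 fold change of 0.60 (SE 0.23). Vcam1 had 28.5, 27.8 and 29.8 CPM in mutant males, against 33.3, 34.3 and 37.8 CPM in wild-type males, with no overlap and a log2 fold change of -0.29 (SE 0.13).

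The difference between the sexes was tested as an interaction, effect in females minus effect in males. In that test 0 members passed, with 0% of all genes, and Map3k14 (-0.75, SE 0.33) and Tab2 (0.82, SE 0.37) had an unadjusted p under 0.05, against 7.67% of genes, each with an adjusted p of 0.555 by edgeR's quasi-likelihood test. Leaving out female mutant 3 gave 0.35 (SE 0.17) for Tab2 and -0.67 (SE 0.31) for Map3k14. In the interaction, 3 members had an unadjusted p under 0.05 without that library, against 10.6% of genes. Females against males over both genotypes gave 0 members called, where 0.0389% of genes were (7 genes), and 0 at an unadjusted p under 0.05, against 1.77%. On leaving out female mutant 3 both counts were again 0, against 0.0433% and 2.67% of genes. Genotype effects had the same sign in both sexes for 16 of 33 members (48.5%), where 38.0% of all genes did, and for 19 (57.6%) without female mutant 3, where 46.2% did.

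Ripk1 and Tnfrsf1a were the members whose genotypes separated the same way in each sex. Mutant females had 7.16, 11.6 and 7.04 CPM of Ripk1, against 6.94, 5.59 and 5.99 CPM in wild-type females. Mutant males had 7.19, 6.66 and 6.65 CPM, against 6.27, 4.86 and 4.84 CPM in wild-type males. For Tnfrsf1a the values were 7.86, 1.55 and 5.99 CPM in mutant females, against 8.16, 8.03 and 8.66 CPM in wild-type females. In males they were 6.19, 6.28 and 6.46 CPM in mutants, against 8.73, 6.53 and 6.79 CPM in wild types. The nearest mutant and wild-type values were close in both genes, so the separation rests on small gaps. These are 2 of 33 members (6.06%), where 0.816% of all tested genes separated the same way in both sexes, and the same 2 without female mutant 3, where 1.89% of genes did. Within females alone 8 members separated (24.2%), where 22.5% of genes did, and within males alone 5 (15.2%), where 13.5% did.

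**Figure D4:**
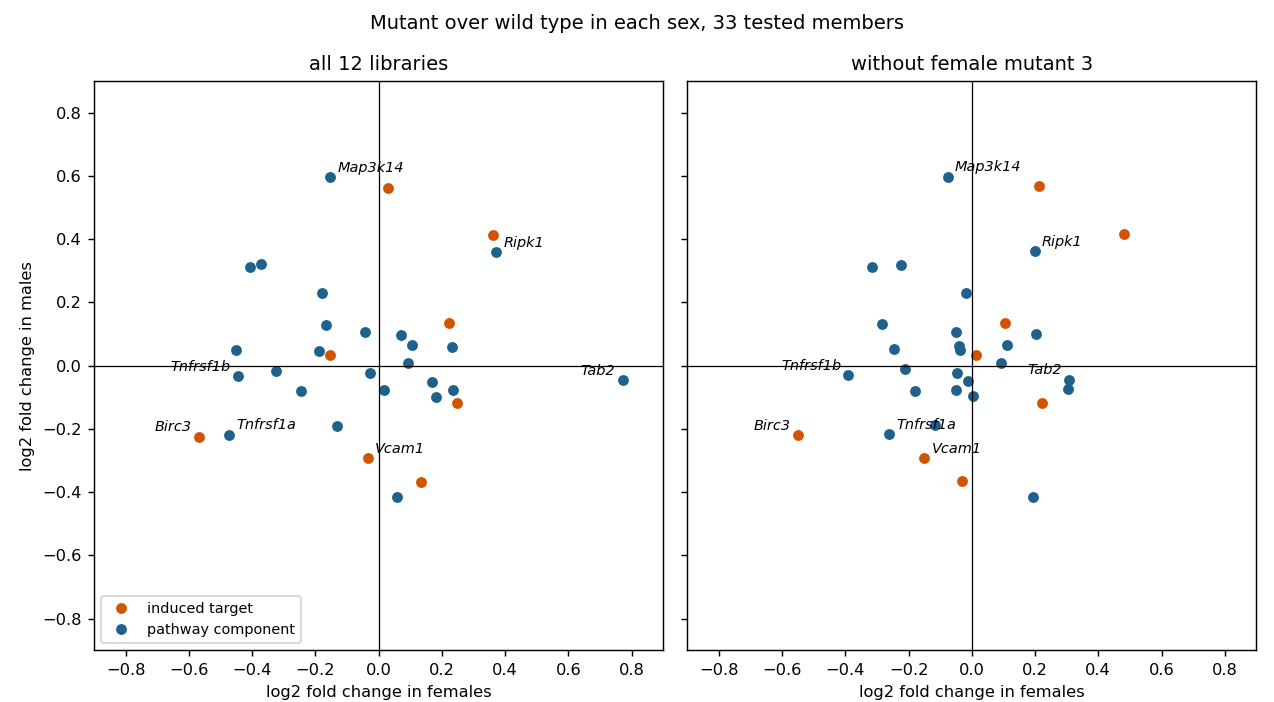
Log2 fold change of each tested member, mutant over wild type, in females (horizontal axis) and in males (vertical axis), with all 12 libraries (left) and without female mutant 3 (right); targets are orange and components blue. Ripk1 lies in the upper right and Tnfrsf1a and Birc3 in the lower left in both panels, whereas Tab2 in females is at 0.77 in the left panel and 0.31 in the right.

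Of 76 further NF-κB pathway genes, 64 were tested, with 30 higher and 34 lower in mutants, a median log2 fold change of -0.02 and 0 called. With female mutant 3 left out, 65 were tested, with 29 higher and 36 lower, a median of -0.007 and 0 called. The smallest p-values on each side belonged to Erc1 (0.18), a regulator of the IκB kinase, Il18 (0.18), an inflammasome cytokine, and Zfp36 (0.29), an mRNA-destabilising protein, and to the Toll-like receptor genes Tlr1 (-0.63), Tlr9 (-0.61) and Tlr7 (-0.29). Without that library the 6 values kept their signs, at 0.13, 0.13 and 0.24, and at -0.65, -0.54 and -0.27. Tlr7 averaged 3.42 ± 0.477 CPM in mutants and 4.26 ± 0.820 CPM in wild types (SD, n = 6 each), and Tlr1 and Tlr9 averaged under 1.3 CPM in either genotype. The most abundant of the listed Toll-like receptor genes, Tlr3, had 19.7 ± 2.15 CPM in wild types and a log2 fold change of -0.05. The others tested, Tlr2, Tlr4 and Tlr6, were at -0.33, -0.24 and 0.06. Without female mutant 3 these 4 were at -0.21, -0.24, -0.36 and -0.13. Some Toll-like receptors are carried by microglia, and the part of the microglial markers given above in these values was not tested.

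Of 30 further induced targets only 15 were expressed enough to be tested, with 8 higher and 7 lower in mutants, a median of 0.04 and 0 called. With female mutant 3 left out, 16 were tested, with 10 higher and 6 lower, a median of 0.02 and 0 called. Classical cytokine and chemokine targets such as Il6, Cxcl2, Cxcl10, Ccl3, Ccl4 and Ccl5 were among the 15 below the filter. Among those higher, the smallest p-values belonged to the stress, prostaglandin and growth factor genes Gadd45b (0.30), Ptgs2 (0.29) and Csf1 (0.17). Among those lower, they belonged to Lcn2 (-2.37), Nos2 (-0.29) and Mmp9 (-0.23). Without that library these 6 were at 0.31, 0.24 and 0.15, and at -2.40, -0.23 and -0.15. The value of Lcn2, an acute-phase protein, rested on few counts, with 0.122 ± 0.157 CPM in mutants and 0.856 ± 1.29 CPM in wild types (SD, n = 6 each), and overlapping ranges of 0 to 0.423 CPM in mutants and 0.0405 to 3.20 CPM in wild types. None of these 6 passed the test, with adjusted p-values of 0.950 by edgeR's quasi-likelihood test.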

How the data were processed

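RNA of 12 frozen cortices was sequenced as paired reads. Per the submitters' processing notes, the tools were Trimmomatic 0.36, HISAT2 2.1.0, HTSeq 0.11 and Cufflinks, on GRCm38.p6, and the authors deposited raw counts per gene in 1 table. Library totals ranged from 3748515 to 32669138 counts, so precision was lowest in female mutant 3. Identifiers were named by GENCODE M21. Counts were filtered with filterByExpr, which kept 18016 genes, scaled by TMM and fitted with edgeR 4.0.16 (R 4.3.3) by its quasi-likelihood test, with sex and genotype over both sexes and 1 mean per group within sexes. The Benjamini-Hochberg adjustment ran across the whole filtered table, and calls needed an adjusted p under 0.05. CPM values use TMM-scaled totals, and per-kb values the merged exon length. Fold changes are mutant over wild type, or female over male. Alternatives used DESeq2 1.42.0, limma 3.58.1, other scalings and filters, no sex term, and each library left out. The test was also run on simulated counts with planted fold changes, drawn from 1 mean per gene scaled to each library's total. Those counts hold no shift particular to female mutant 3 other than its depth, so they do not check the test against such a library. Members and lists were chosen with earlier results of these data known. Members given per sample were, in each role, that of smallest p and that of highest level per length. Values given per sample for other members, and separation within each sex, were chosen after the values were seen. The κB consensus replaced narrower forms of the motif searched first.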

Additional observations from a re-analysis of the deposited data

Results flagged for a closer look

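Each tested member was screened for a library far from the other 5 of its genotype, by the gap to its nearest neighbour relative to the whole range. Of 66 groups screened, 13 held such a library, where chance alone flags about 5% of groups, and 11 of the 13 were female mutant 3. In that library 7 members were far above the other mutants, with 250 CPM for Tab2, 106 CPM for Map3k7, 67.4 CPM for Birc2, 39.1 CPM for Traf6, 37.6 CPM for Vcam1, 13.6 CPM for Nfkbia and 11.6 CPM for Ripk1. Another 4 were far below them, with 21.3 CPM for Irak1, 9.29 CPM for Rela, 1.55 CPM for Tnfrsf1a and 1.16 CPM for Traf2. Tnfrsf1a and Traf2 rest there on 4 and 3 counts. The other cases were Ikbkb at 50.2 CPM in male mutant 27, the highest of all 12 libraries, and Cyld at 175 CPM in male mutant 10, the lowest of all 12. No wild-type library was far from its group. The low total and the high mitochondrial share of female mutant 3 move with its extremes, and their part in them was not tested.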

How the results depend on the processing

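No member was called under any alternative in any comparison, and for the genotype effect over both sexes the lowest adjusted p of a member over the alternatives was 0.149, for Vcam1. Over all genes, calls over both sexes (1) became 25 with DESeq2, 22 with limma-voom with library weights, 0 with library totals, 51 and 4 with DESeq2 and limma-voom without female mutant 3, and 0 to 2 with 1 library left out. Calls in females (0) became 6 with DESeq2, 2 with no filter and 15 with DESeq2 without female mutant 3. Calls in males (0) became 3 with DESeq2, 16 with DESeq2 without female mutant 3 and 0 to 1 with 1 library left out. Interaction calls (0) became 4 with DESeq2, 1 with no filter, 4 with DESeq2 without female mutant 3 and 0 to 1 with 1 library left out. The components' median was -0.051 with library totals and -0.052 to 0.042 with 1 library left out. Targets minus components came to -0.094 with no filter and -0.11 with DESeq2 without female mutant 3. These last alternatives without that library, DESeq2 and limma-voom, were chosen after seeing the data.

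Over up to 21 alternatives, 18 of 33 members kept their sign and 15 turned at least once. With library totals, under which the median of all genes over both sexes was -0.081 in place of -0.01, Nfkb1 was at -0.046, Nfkbiz at -0.0075, Ikbkb at -0.035, Map3k7 at -0.044, Traf3 at -0.050 and Traf6 at -0.051. With limma-voom, Nfkb2 was at 0.12, Map3k7 at -0.023, Traf6 at -0.019 and Birc2 at -0.0045, and without female mutant 3 these were 0.13, -0.027, -0.024 and -0.0085. With DESeq2 Nfkb2 was at 0.015, and with DESeq2 without female mutant 3 Nfkb2 was at 0.083, Relb 0.037, Map3k7 -0.030, Traf6 -0.050, Irak1 0.014 and Tnfaip3 0.027. Nfkb2 was also at 0.0074 with a filter of 1 CPM in 6 libraries and at 0.042 with no sex term. With 1 library left out, ranges that crossed 0 were -0.12 to 0.086 for Nfkb2, -0.19 to 0.054 for Relb, -0.021 to 0.16 for Nfkbiz, -0.056 to 0.0038 for Ikbkg, -0.064 to 0.0028 for Chuk, -0.033 to 0.092 for Map3k7, -0.067 to 0.12 for Traf3, -0.053 to 0.092 for Traf6, -0.062 to 0.079 for Myd88, -0.11 to 0.010 for Irak1, -0.16 to 0.024 for Tnfaip3 and -0.24 to 0.024 for Icam1. The cause was not tested. No paired analysis was possible because each animal number occurs in 1 group only. Depth limits Cd40, Bcl3, Ccl2 and Cxcl1 most.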
